A study of Arabidopsis thaliana with 8 samples.

Results

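The genes described here were those whose ribosomes were rarely caught on the annotated start codon even in plants mutant for HOT3/eIF5B1. Footprints of 28 nt were pooled over the 4 libraries that carry *hot3-2* (genotypes *hot3-2* and *hot3-2 dcl2 dcl4*), called carriers below. A nuclear gene was a member when at least 500 P sites fell in its coding sequence and 0.4% or fewer of them fell on the 3 nt of the start codon. Of 1002 genes that reached 500 P sites, 657 (65.6%) were members and 345 were not. The P site is the place in the ribosome that holds the growing peptide, and the start codon share is the percentage of a coding sequence's P sites that lie on its start codon. Without *hot3-2* replicate 1 the same rule gave 414 of 622 genes. The share in carriers chose the members, so it is given as a description and was not tested.

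The series profiled ribosome footprints in *Arabidopsis* inflorescences of 4 genotypes with 2 libraries each, which were *hot3-2*, *hot3-2 dcl2 dcl4*, *dcl2 dcl4* and WT. The *hot3-2* allele is a T-DNA insertion in the eIF5B1 gene *HOT3*, the only *hot3* allele profiled, and *hot3-2 dcl2 dcl4* combines it with the *dcl2-1* and *dcl4-2* mutations of 2 Dicer genes, which its control *dcl2 dcl4* also carries. Tissue was lysed in cycloheximide and digested with RNase I, and each library came from bulk inflorescences. Nothing in the labels says whether the 2 libraries of a genotype came from separate plants, so p-values measure the spread between libraries, which may be technical.

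The libraries held between 1198328 and 2842475 P sites in nuclear coding sequences, with fewer in the 4 carrier libraries than in the other 4. Levels are given as CPM, the per-million value of a gene's coding P sites in a library. *HOT3* (AT1G76810) had between 30.5 and 45.1 CPM in the carriers, against 99.9 to 156 CPM in *dcl2 dcl4* and WT. Among floral organ genes, *AP3* (143 to 166 CPM in carriers, 169 to 221 CPM in *dcl2 dcl4* and WT), *PI* and *SEP3* were found in every library. *LFY*, from the same list of markers, had only 2 to 9 P sites in carriers and 3 to 11 in *dcl2 dcl4* and WT. *AG* had no P site in its coding sequence in any library, and *AP1* was not analysed here. The reason for the count of *AG* was not tested, so it should not be read as a lack of translation.

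Eukaryotic translation begins when a small ribosomal subunit scans the 5′ UTR and stops at a start codon. eIF5B is a GTPase that helps the large subunit join there, and it must hydrolyse GTP and leave before elongation starts. A ribosome held at that step protects a footprint with the start codon in its P site. A triplet that differs from ATG by 1 base, such as CTG, can serve as a weaker start in many eukaryotes, and short reading frames in the 5′ UTR are often entered by the same scanning subunits.

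Sequences of the 28 nt that a footprint with the start codon in its P site would cover are shown for members with no such footprint in any carrier library and for 2 other genes with many, so that the same window can be compared. They were read from the TAIR10.1 genome, with the start codon in capitals. *ROC3* (AT2G16600, a cyclophilin, chr2:7200850-7200877, plus strand), *HSC70-1* (AT5G02500, a cytosolic chaperone, chr5:556319-556346, minus strand), *TUB4* (AT5G44340, a beta-tubulin, chr5:17860979-17861006, minus strand) and *CDC48* (AT3G09840, an AAA-type ATPase, chr3:3019482-3019509, plus strand) are members. *GRF2* (AT1G78300, chr1:29461871-29461898, plus strand) and *AGP15* (AT5G11740, an arabinogalactan protein, chr5:3784306-3784333, plus strand) are not.
ROC3: agaaaaaaagaaATGgcaacaaacccta
HSC70-1: cttccgataaaaATGtcgggtaaaggag
TUB4: aaaaaaaaaaaaATGagagagatccttc
CDC48: tcaaactcaatcATGtctaccccagctg
GRF2: ctagaaacaacaATGgcgtctgggcgtg
AGP15: aaaatctttgaaATGgcgatctctaagg

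The members took 66.4% of all coding-sequence P sites of the 1002 genes in carriers but 1.5% of the start codon P sites, which were 569 of 38033. The other genes were themselves unequal, and 18 of the 1002 genes held 50% of the start codon P sites and 126 held 90%. Of the 657 members, 480 had no start codon P site in carriers, and 73 had at least 3. At the smallest depth of 500 P sites a count of 0 allows a share of up to 0.6%, so for the shallowest members the limit itself is close to what can be resolved. Of the 115 members with at least 2000 carrier P sites, 62 were at 0. These include genes such as *LOS1* and AT1G07920, whose start codon could not be read reliably for the reasons given below.

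*ROC3* had 3394 and 2805 P sites in *hot3-2*, 1595 and 1503 in *hot3-2 dcl2 dcl4*, 2372 and 2973 in *dcl2 dcl4* plants and 5216 and 3647 in WT, and none of them was on its start codon. *HSC70-1* had 8192 P sites in carriers with 0 on the start codon, and 13439 in *dcl2 dcl4* and WT with 1. The member with the most start codon P sites was *ROC5* (AT4G34870), another cyclophilin, with 12 and 9 in *hot3-2*, 7 and 2 in *hot3-2 dcl2 dcl4*, 0 and 6 in *dcl2 dcl4* plants and 2 and 3 in WT, out of 19534 coding-sequence P sites in carriers and 33809 in the other 4 libraries. *RBCS1A* (AT1G67090), a small subunit of Rubisco, was the deepest member, with 16 of 32459 in carriers and 5 of 54462 in *dcl2 dcl4* and WT. *PSBO1*, of the oxygen-evolving complex of photosystem II, had 4 of 18700 and 2 of 28443, and the vegetative storage protein *VSP1* had 12 of 13985 and 7 of 21943.

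The members just inside the limit were *CYP96A15* (0.392%, 5 of 1274 P sites), *GSTF9* (0.392%, 6 of 1532) and *XTH3* (0.390%, 2 of 513). The genes just outside it were *c-NAD-MDH1* (0.411%, 14 of 3409), *DPE2* (0.419%, 5 of 1193) and AT4G23820 (0.424%, 5 of 1180). For genes this close to the limit, membership rested on single P sites. In *GSTF9* most P sites were also out of the frame given by the files.

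The libraries of *dcl2 dcl4* and WT were not used to choose the members and give the same measure in samples the rule did not use. The pooled start codon share of members was 0.0523% and 0.0439% in *hot3-2*, 0.0626% and 0.0653% in *hot3-2 dcl2 dcl4*, 0.0210% and 0.0231% in *dcl2 dcl4* plants and 0.0211% and 0.0195% in WT. In the other genes it was 7.14% and 6.58%, 7.35% and 7.33%, 1.33% and 1.35%, and 1.41% and 1.47% in the same order. The 95% Wilson interval of the members' share, which covers counting error only, was widest in *hot3-2 dcl2 dcl4* replicate 1, at 0.0523% to 0.0750%. Members were thus low in all 8 libraries, including the 4 that did not choose them, where they averaged 0.0212% ± 0.00148 against 1.39% ± 0.0629 in the other genes (SD, n = 4). Later codons, such as codon 7 of members, also had similar mean shares in both sets of libraries (0.350% and 0.333%). Low values in these 4 libraries are therefore no independent check of the choice. Between genotypes, all 4 carrier libraries lay above all 4 others also in members. The mean share in carriers was 2.65 times that in *dcl2 dcl4* and WT for members and 5.11 times for the other genes. The rule limits the carrier value of members at this length, so the smaller factor was partly set by it.

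**Figure D1:**
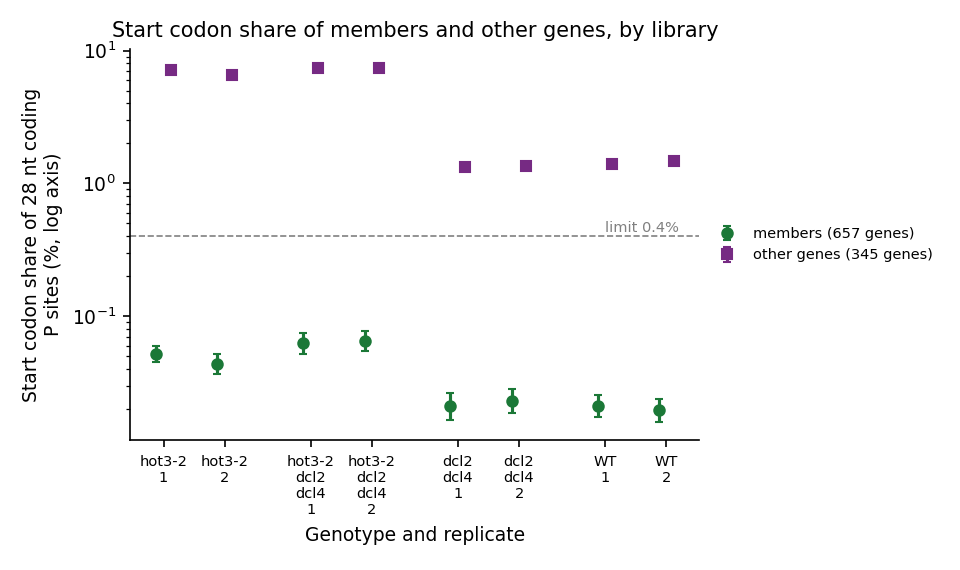
Pooled start codon share of 28 nt P sites (percent, log axis) in each library for the 657 members and the 345 other genes, with 95% Wilson intervals and the limit of 0.4% as a dashed line. Members lie between 0.0195% and 0.0653% in every library, and the other genes between 1.33% and 7.35%.

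Of the members, 648 (98.6%) were at or under 0.4% in *dcl2 dcl4* and WT too, as were 176 (51%) of the other genes, and 437 members had no start codon P site in any of the 8 libraries. The 9 members above 0.4% there rested on few P sites. *COL5*, a CONSTANS-like gene, had 2 of 631 P sites in carriers and 7 of 804 (0.871%) in *dcl2 dcl4* and WT. The ribosomal protein L13 gene AT3G07110 had 3 of 834 and 6 of 717 (0.837%), but only 50.7% of its P sites were in the frame given by the files. The acyltransferase gene *GLC* had 2 of 620 and 6 of 860 (0.698%). *eEF-1Bb1* (2 of 630 and 5 of 788) and *UBP23* (0 of 578 and 3 of 529) were the next.

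Footprints of other lengths were not used by the rule, although they came from the same libraries. With fixed offsets, the members' share was 0.123% at 26 nt, 0.128% at 27 nt and 0.180% at 29 nt in carriers, and 0.0478%, 0.0485% and 0.0376% in *dcl2 dcl4* and WT. The other genes stood at 3.66%, 4.38% and 6.96% in carriers and 0.867%, 0.989% and 1.43% in *dcl2 dcl4* and WT. The members were low at each of these lengths, though with higher shares than at 28 nt. Both classes were higher in carriers at each length. At 29 nt members went from 0.0376% in *dcl2 dcl4* and WT to 0.180% in carriers, and the other genes from 1.43% to 6.96%. A low share is therefore not the same as a small relative rise in carriers.

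A low share at 1 codon is not unusual, so the start codon was set beside the codons that follow it. Each of codons 2 to 100 was at or under 0.4% in 85.5% to 91.9% of genes in carriers, with a median of 89.0%, whereas the start codon was so in 65.6%. In *dcl2 dcl4* and WT it was so in 82.8% of genes against a median of 88.6%. Many genes therefore fell under the limit at any codon. In *dcl2 dcl4* and WT, which the rule did not use, the mean share of the members' start codon was 0.0255%, against a median of 0.301% over codons 2 to 100 and a lowest value of 0.0677% among them. In carriers it was 0.0503% against 0.297%, and 52 members and 336 other genes had more carrier P sites on the start codon than on their average codon, values that the rule itself sets low in members and high in the others. Codons 2 and 3 of members were low as well, at 0.0890% and 0.109% in carriers and 0.0677% and 0.0840% in *dcl2 dcl4* and WT, and codon 7 was at 0.350% and 0.333%. Mean shares of these codons were thus similar in both sets of libraries, and only the start codon was chosen for a low share. Its low value in *dcl2 dcl4* and WT is therefore a description and gives no separate support.

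**Figure D2:**
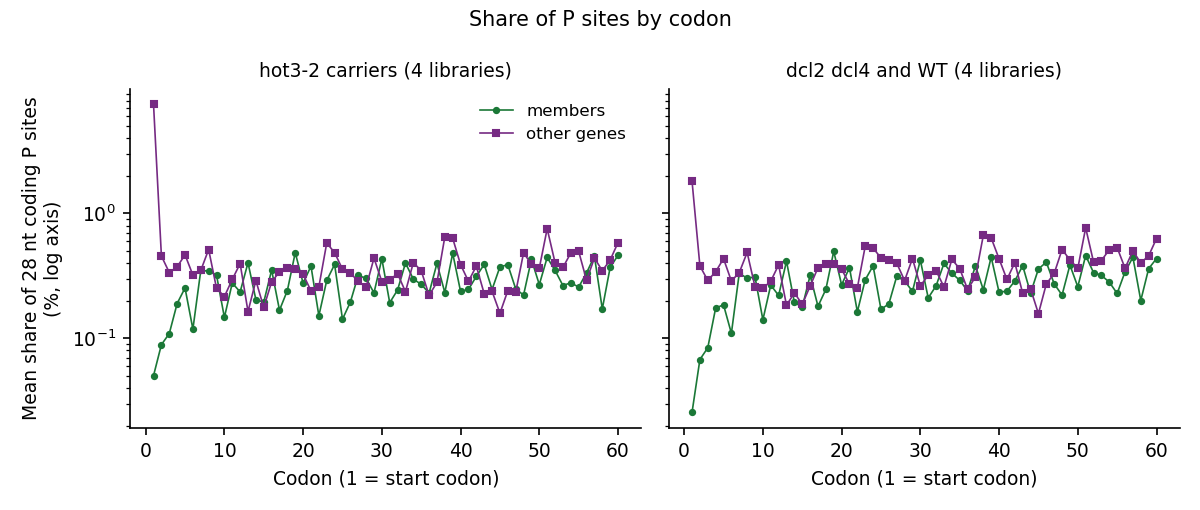
Mean share of 28 nt coding P sites (percent, log axis) at codons 1 to 60 in members and other genes, for carriers on the left and *dcl2 dcl4* with WT on the right. The classes were split by their start codon in carriers, where it is at 0.0503% in members and 7.48% in the other genes. In *dcl2 dcl4* and WT it is at 0.0255% and 1.82%.

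The files or the sequence limited how the start codon could be read in some members. In 32 members and in none of the other genes, the 5′ UTR length implied by the files differed from the TAIR10.1 annotation, and in 25 of the 32 the files lacked exactly the last stretch of 5′ UTR before the ATG. These 32 included the elongation factor genes *LOS1* (AT1G56070, eEF2) and AT1G07930 and AT1G07940 (eEF1A), all at 0 of 11911 to 19619 carrier P sites. In 13 of the 32 most P sites were out of the frame given by the files. Another 7 members had an annotated 5′ UTR under 12 nt, and a 28 nt footprint with its P site on the start codon begins 12 nt before it. Each gene was counted once, under the first of these features that applied. The 28 nt window of a further 14 members (2.13%) and of 6 other genes (1.74%) occurred in another gene or elsewhere in the genome. An example is AT1G07920 (eEF1A), whose coding sequence shares 94.3% of its 28-mers with other genes, so its counts are uncertain. An exon junction lay in the window of 54 members (8.22%) and of 44 other genes (12.8%). None of these applied to 550 members (83.7%), and their pooled share was between 0.0489% and 0.0765% in the carrier libraries and between 0.0219% and 0.0266% in *dcl2 dcl4* and WT. The frame was not among these features. Most P sites were out of the frame given by the files in 40 members in all and in 15 other genes. Some of these members are among the 550, such as *GRP17*, *GSTF9* and AT1G11850, with 3.94%, 21.8% and 43.8% of P sites in frame.

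The bases around the start codon were compared over the genes with none of these features. A purine at position −3, counting the A of the ATG as +1, was present in 78.2% of 550 members and 86.1% of 295 other genes. G at position +4 was present in 59.1% and 69.5%. Both together, the context known to favour initiation in plants and animals, were present in 43.3% and 56.3%, and neither was present in 33 members (6%) and 2 other genes (0.678%). The last base of the window was G in 24.9% of members and 38.0% of other genes. Inside coding sequences, footprints of carriers ended in G more often than the positions available, at 40.0% against 34.7% in members and 42.1% against 35.1% in other genes. Footprints of *dcl2 dcl4* and WT did so too, at 39.4% against 34.7% and 42.2% against 35.1%. Whether the last base bears on which start codons were captured was not tested.

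Members had longer coding sequences, with a median of 1353 nt (quartiles 798 and 2010) against 963 nt (546 and 1461) in the other genes. The measure itself depends on length, and its part in this difference was not tested. The share is taken over the whole coding sequence, so a start codon read as often as the average codon passes the limit in any gene of more than 250 codons, which 513 members (78.1%) and 221 other genes (64.1%) had. The fraction of genes that were members was 53.5% under 600 nt, 57.0% from 600 to under 1200 nt, 70.5% from 1200 to under 1800 nt and 80.2% from 1800 nt. The 5′ UTR barely separated the classes, with a median of 184 nt in members and 186 nt in other genes. Only the shortest class stood out, since 34 of 37 genes with under 50 nt in the files were members, 15 of them with under 12 nt. The genes with the shortest 5′ UTR, all at 0 nt in the files, were *MLP28*, *RCA* (Rubisco activase), AT3G04920 (ribosomal protein S24e), AT3G09440 (an Hsp70) and *LHCB2.3*, of which only *LHCB2.3* also has 0 nt in the annotation.

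**Figure D3:**
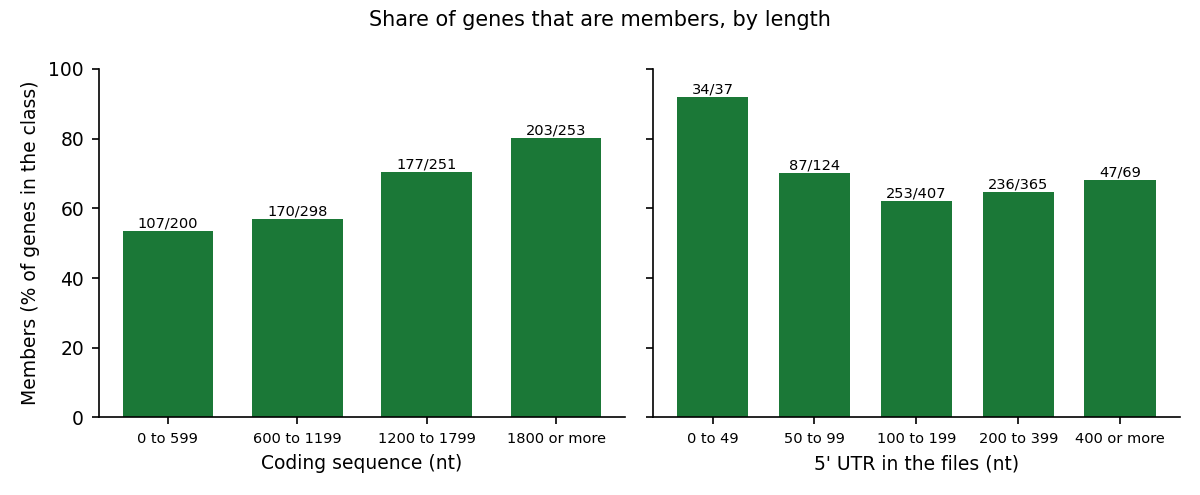
Members as a percentage of the genes in each class of coding-sequence length (left) and of 5′ UTR length in the files (right), with members and genes counted above the bars. The fraction is 53.5% under 600 nt and 80.2% from 1800 nt of coding sequence, and 91.9% under 50 nt of 5′ UTR.

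The first covered position was the first nucleotide of the coding sequence with at least 3 P sites of 28 nt over all 8 libraries. Its median was 18 nt after the A of the ATG in members and 0 in the other genes, which the rule largely fixes. The position was 30 nt or farther in 257 members (39.1%) and 150 nt or farther in 18. It was farthest in AT1G65010 (336 nt), a WEB family protein of 1346 codons, followed by *CSR1* (300 nt), the acetolactate synthase subunit targeted by chlorsulfuron, *MAML-4* (258 nt), *HMG1* (240 nt), the HMG-CoA reductase of the mevalonate pathway, and the receptor-like kinase gene AT3G23750 (222 nt). These 5 had between 525 and 1127 P sites in carriers, below the members' median of 967 in 4 of them, and fewer P sites place this position farther out.

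Positions away from the start codon were then compared between carriers and the libraries of *dcl2 dcl4* and WT. For every gene the codon with the largest gain in share, from 100 codons before the start to the stop, was found. The rule keeps the start codon of members from being that codon, which it was in 125 of 345 other genes, and some codon has the largest gain in every gene (median 3.16 percentage points in members and 3.89 in the other genes). In members it was another ATG in 19 of the 625 genes in which codons could be read, or 3.04% where ATG makes up 2.18% of the codons searched. The 5 largest gains were those of *DL3*, *ABCE2*, *AlaAT1*, AT1G26460 and AT1G11850. Carriers had 43.2% of the P sites of AT1G26460, a tetratricopeptide repeat gene, at its GAC codon 145, against 24.7% in *dcl2 dcl4* and WT, without overlap between the libraries (32.6% to 51.1% and 21.0% to 30.3%). At codon 108 of AT1G11850 the libraries overlapped (63.2% to 73.7% and 42.7% to 65.5%).

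*DL3* and *ABCE2* gained in the 5′ UTR, which led to a count of all positions there, with limits chosen after the values were seen. A position was called raised when its mean share of the gene's coding P sites was at least 1% in carriers, at least 2 times that of *dcl2 dcl4* and WT, and every carrier library lay above every other library. Of 109 positions before the start codon with at least 1% in carriers, 24 in 23 members were raised (22%), against 2.17% of 10901 such positions anywhere outside the start codon. Entry by the carriers favours higher carriers, so positions were also entered by a mean of at least 1% over all 8 libraries. Of 84 such positions before the start codon, 20 were higher in carriers by the same limits and 0 were lower, while after it 146 of 10047 were higher and 121 lower. Of 55 positions entered by *dcl2 dcl4* and WT, 9 were higher in carriers and 1 was lower.

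The 24 positions had ATG (5 of 7 positions) or a triplet 1 base away from ATG (19 of 67) in the P site, and none of the 35 positions with another triplet was raised. This did not hold under each alternative, since leaving out 1 library gave 27 to 35 raised positions with 25 to 30 of these triplets. At 7 of the 24 positions the carriers had under 20 P sites in all, and these include 2 of the 5 ATG positions, with 5 P sites in AT5G13560 and 13 in *PSB29*. ATG is 0.676% and the triplets 1 base away 13.5% of all triplets in the 5′ UTRs of members. Of the 19 positions, 9 had CTG, 4 ATC and 3 GTG. The annotated start codon had no P site in carriers in 17 of the 23 genes (73.9%), close to the 73.1% of all members. When footprints of 26 to 29 nt were counted, 40 positions were raised, and 32 of them had ATG or a triplet 1 base away. After the start codon 10 of 263 ATG positions were raised, as were 34 of 1762 positions 1 base away and 169 of 8767 others. In the other genes, 14 of 59 positions before the start codon were raised, 8 with a triplet 1 base away from ATG and 6 with another triplet. The 24 positions are a description of these libraries, and no test was run on them.

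Windows of 7 of the 8 positions with the largest carrier share are shown for their P-site triplets, in capitals. That of AT1G57720 (CTG, 8.04% in carriers and 1.31% in *dcl2 dcl4* and WT) is left out because it spans an exon junction. They lie in the 5′ UTR of *DL3* (AT1G59610, a dynamin-like GTPase, chr1:21893315-21893342, plus strand), *ABCE2* (AT4G19210, a homologue of ABCE1, which recycles ribosomes in yeast, chr4:10501233-10501260, plus strand), *ABCB19* (AT3G28860, an auxin transporter, chr3:10877340-10877367, minus strand), *AVP1* (AT1G15690, the vacuolar proton-pumping pyrophosphatase, chr1:5399020-5399047, plus strand), *HEMC* (AT5G08280, hydroxymethylbilane synthase of tetrapyrrole synthesis, chr5:2665667-2665694, minus strand), *HTB4* (AT5G59910, a histone H2B, chr5:24127155-24127182, plus strand) and AT1G55360 (a DUF239 protein, chr1:20668591-20668618, minus strand).
DL3: tcgtggctaccgATAttgattctaatcg
ABCE2: gtgtgctctccgCTGgttccttagaaca
ABCB19: tctcactgctcaATGatctcgttttctc
AVP1: tgtgtgtgttctGTGttctctctctcgc
HEMC: aagcgaaattctCTGatctctcttcatt
HTB4: actcaatctcagATCtcgttaaacctag
AT1G55360: tcattcattctcCTGtgtgagctcttcc

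At the ATA 86 nt before the start codon of *DL3* there were 129 and 59 P sites in *hot3-2* and 32 and 23 in *hot3-2 dcl2 dcl4*, against 8 and 16 in *dcl2 dcl4* plants and 14 and 13 in WT. As a percentage of coding P sites this was 42.9% ± 18.9 in carriers and 6.26% ± 1.96 in *dcl2 dcl4* and WT (SD, n = 4 each), and *hot3-2* replicate 1 stood highest at 69.7%. The annotated start codon of *DL3* had none in any library. At the CTG 82 nt before the start of *ABCE2* there were 84, 93, 44 and 46 P sites in the carrier libraries against 5 and 8 in *dcl2 dcl4* plants and 3 and 1 in WT, which is 30.6% ± 7.85 and 2.07% ± 1.69. Its annotated start codon had 1 P site in carriers and 0 in the others. From that CTG a stop codon follows after 3 codons, still within the 5′ UTR, and the frame opened by the ATA of *DL3* ends 40 nt past the annotated ATG.

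The ATG 69 nt before the start of *ABCB19* opens a frame of 6 codons. It had 26, 21, 27 and 20 P sites in carriers against 3 and 6 in *dcl2 dcl4* plants and 18 and 13 in WT, or 11.3% ± 3.44 and 2.13% ± 1.26. *AVP1* had 2 raised positions 2 nt apart, a GTG at 11.1% ± 6.52 in carriers and 2.25% ± 1.05 in *dcl2 dcl4* and WT, and a CTG at 3.77% and 0.116%. At the CTG of *HEMC* the values were 9.96% ± 4.49 and 0.537% ± 0.593, and at the CTG of AT1G55360 they were 7.62% ± 0.528 and 0.334% ± 0.256. *HTB4* had 7.79% ± 1.80 and 1.25% ± 0.140 at its ATC. Of the 24 frames, 10 end before the annotated start, 10 run past it in another frame and 4 continue into the coding sequence in its own frame. The 28-mers of 2 of the 24 positions also occur in another gene.

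**Figure D4:**
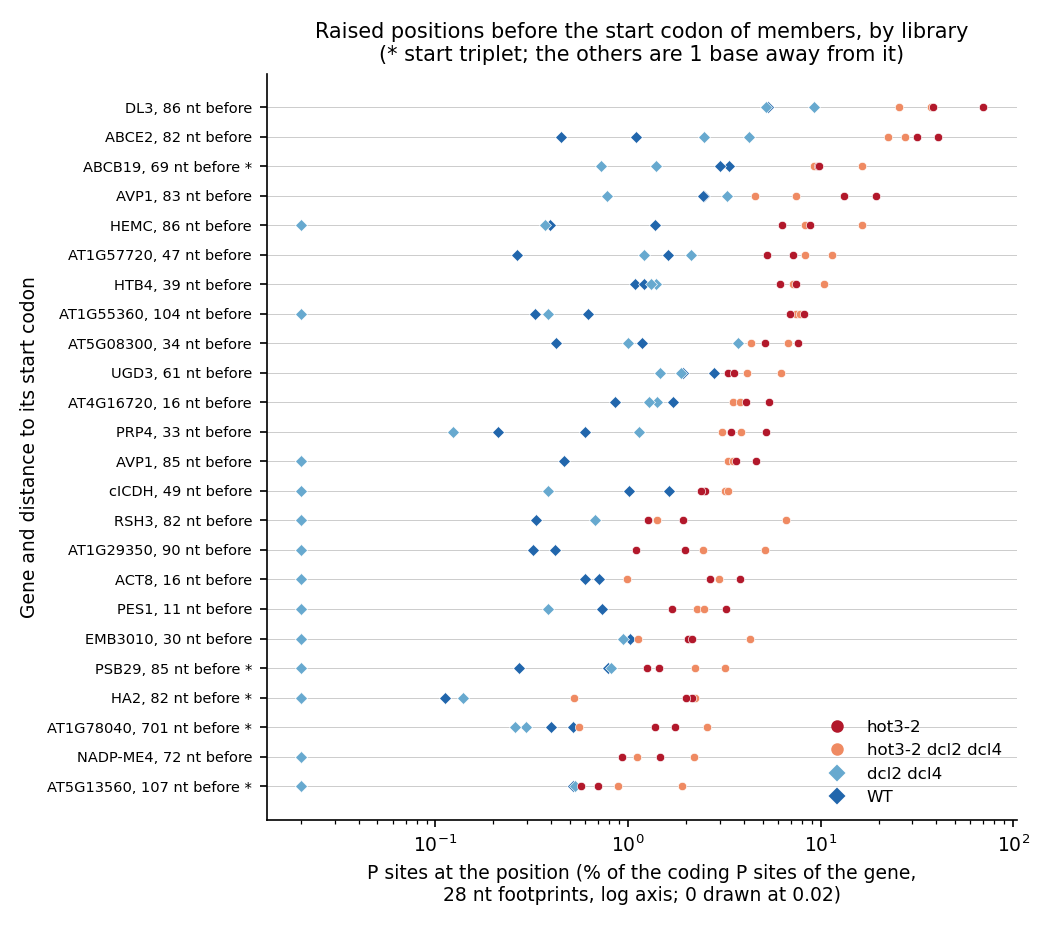
P sites at the 24 raised positions before the start codon as a percentage of the coding P sites of the gene (28 nt, log axis, 0 drawn at 0.02), with 1 symbol per library and an asterisk where the triplet is ATG. By the rule used, both carrier genotypes lie right of *dcl2 dcl4* and WT at each position, with the largest shares in *DL3* and *ABCE2*.

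Among the 10 raised ATG positions after the start codon, 2 were in the annotated frame and 8 in another. The largest was codon 55 of *AlaAT1* (AT1G17290, alanine aminotransferase), whose window is shown beside that of its annotated start codon and beside the out-of-frame ATG of *GAE6* (AT3G23820, a UDP-glucuronate epimerase of cell wall sugar synthesis). They lie at chr1:5922921-5922948, chr1:5922759-5922786 and chr3:8604039-8604066, all on the plus strand.
AlaAT1 codon 55: tcttcttccgatATGtctgcttctgatt
AlaAT1 annotated start: acacaatcacaaATGcggagattcgtga
GAE6 out of frame: gaaaacgtggcgATGgagtcttaggatt

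Codon 55 of *AlaAT1* had 132 and 139 P sites in *hot3-2*, 72 and 65 in *hot3-2 dcl2 dcl4*, 28 and 23 in *dcl2 dcl4* plants and 60 and 33 in WT, while its annotated start codon had 0 in all 8 libraries. This was 31.6% ± 6.61 of its coding P sites in carriers and 10.4% ± 3.15 in *dcl2 dcl4* and WT. In *GAE6* an ATG 406 nt after the start, whose frame ends after 3 codons, had 36, 47, 39 and 29 P sites in carriers against 2 and 1 in *dcl2 dcl4* plants and 18 and 5 in WT, or 16.9% ± 4.89 and 1.96% ± 1.93. Codon 90 of the starch branching enzyme gene *SBE2.2* was the other in-frame position, at 9.67% ± 4.17 and 3.58% ± 1.46. The remaining 7 out-of-frame positions had shares of 1.64% to 2.86% in carriers.

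Coding-sequence P sites of all lengths were compared next. In bulk tissue, fewer cells of a type and fewer footprints per cell cannot be told apart. The mean *hot3-2* effect, the average of *hot3-2* against WT and *hot3-2 dcl2 dcl4* against *dcl2 dcl4*, was fitted by limma voom over 13323 genes. It passed an adjusted p of 0.05 in 380 members, of which 170 rose and 210 fell, where 17.8% of all genes tested passed (8.87% higher and 8.95% lower). This was 57.8% of members and 61.7% of the other genes at the same depth, both of which are well counted genes chosen for many P sites in carriers. The members' median log2 change was −0.05, against 0.01 over all genes. In *hot3-2* against WT 177 members rose and 174 fell, where 14.4% of all genes passed (7.29% higher and 7.1% lower), and 114 fell without *hot3-2* replicate 1. In *hot3-2 dcl2 dcl4* against *dcl2 dcl4* 115 rose and 159 fell, where 8.91% of all genes passed (4.3% higher and 4.61% lower). When 28 nt footprints alone were counted, 65 rose, and 73 or 69 rose without *dcl2 dcl4* replicate 1 or 2, while 98 fell without *hot3-2 dcl2 dcl4* replicate 2. In *dcl2 dcl4* against WT 90 rose and 68 fell, where 5.41% of all genes passed (2.28% higher and 3.13% lower). Without *dcl2 dcl4* replicate 1, 43 rose and 33 fell, and 33 or 44 fell without *dcl2 dcl4* replicate 2 or WT replicate 1. The 2 *hot3-2* effects differed in 62 members, 21 of them with a higher and 41 with a lower effect in the *dcl2 dcl4* background, where 1.1% of all genes did so (0.338% higher and 0.766% lower). The higher count was 10 with 28 nt footprints alone and 13 without *dcl2 dcl4* replicate 1, without *dcl2 dcl4* replicate 2 or without *hot3-2 dcl2 dcl4* replicate 1, and the lower count was 24 without *hot3-2 dcl2 dcl4* replicate 2.

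The largest rise was that of AT2G16660, a major facilitator superfamily transporter, with 366.7 and 363.6 CPM in *hot3-2* and 480.7 and 382.9 in *hot3-2 dcl2 dcl4*, against 183.4 and 178.2 in *dcl2 dcl4* plants and 206.4 and 182.2 in WT. Its mean log2 effect was 1.08 ± 0.08 (SE, limma adjusted p = 1.28e-18), and no start codon P site was found in any library. *UBQ6*, a ubiquitin extension gene, had 977.7, 950.7, 1013.4 and 922.4 in carriers against 511.9 and 497.4 in *dcl2 dcl4* plants and 480.9 and 457.6 in WT, a change of 0.99 ± 0.06 (limma adjusted p = 6.35e-25). *RS27A*, a ribosomal protein gene, *FIB2*, a fibrillarin of the nucleolus, and *PUM24*, a Pumilio RNA-binding protein, rose by 0.98, 0.91 and 0.89 on the log2 scale. The rule that named these 5 genes required the carrier libraries to lie above all others. Of the 380 members past the threshold, 278 had carrier libraries that did not overlap the others, 130 up and 148 down. Over all 13323 genes tested, passing or not, 2120 had such libraries, 1045 up and 1075 down. That count did not ask for the threshold, so its fraction cannot be compared with 278 of 380.

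The largest fall was that of *GRP17* (AT5G07530), an oleosin-like protein of the pollen coat. It had 430.2 and 533.2 CPM in *hot3-2* and 456.0 and 467.4 in *hot3-2 dcl2 dcl4*, against 1200.3 and 1294.9 in *dcl2 dcl4* plants and 1503.6 and 1760.7 in WT, a log2 change of −1.60 ± 0.06 (limma adjusted p = 1.02e-34). Most P sites of *GRP17* were out of the frame given by the files. The tapetum markers, in CPM of the unadjusted library total, ranged lower but overlapped. *A9* ranged from 6.54 to 28.9 CPM in carriers and from 22.2 to 50.2 CPM in *dcl2 dcl4* and WT. *LTP12* ranged from 89.0 to 132 and 89.4 to 182, and *MS2* from 87.6 to 129 and 106 to 190. The part of these markers in the fall of *GRP17* was not tested. *XPL1*, a methyltransferase of choline synthesis, fell by 1.29 on the log2 scale, and the tonoplast aquaporin *DELTA-TIP* by 1.18. The plastocyanin *DRT112* fell by 1.12 and the terpene synthase *TPS10* by 0.96. In *GRP17* and these genes every carrier library lay below all others, as the rule that named them required.

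**Figure D5:**
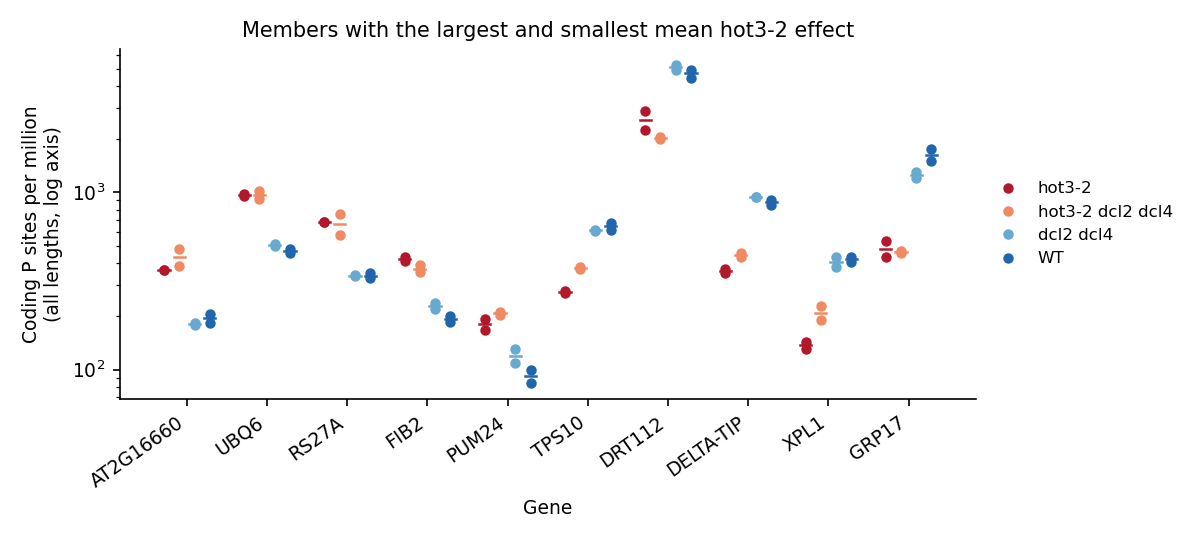
Coding-sequence CPM (P sites of all lengths, log axis) of the 10 members with the largest and smallest mean *hot3-2* effect, with a point per library and a bar at the mean of each genotype. By the rule that named the genes, carriers lie above *dcl2 dcl4* and WT in the 5 on the left and below them in the 5 on the right.

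Members were grouped by words in their product names. The counts below stand beside 8.87% of all genes higher and 8.95% lower, and beside 25.9% of all members higher and 32% lower. Products named as ribosomal proteins, which by their names include *LOS1* and *eEF-1Bb1*, were the largest such group after the enzymes, with 58 members and 52 other genes, so 52.7% of them were members against 65.6% of all 1002 genes. Of the 58, 43 rose, 3 fell and 12 did not pass, with a median log2 change of 0.46. Those that fell include *RPS1* (−0.77) and *emb1473* (−0.69), whose proteins belong to the plastid ribosome. AT5G02870 (ribosomal protein L4/L1, 0 of 4400 carrier P sites on the start codon) rose by 0.76. Translation factors and tRNA ligases had 23 members and 9 other genes, and 16 of the 23 rose and 2 fell. Of these, AT4G20980 (a subunit of eIF3, which binds the small ribosomal subunit) rose by 0.80 and *TWN2* (valyl-tRNA synthetase) by 0.54.

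Cell wall genes had 44 members and 13 other genes, and 3 of the 44 rose and 23 fell, with a median of −0.23 against −0.05 over all members, of which 32% fell. *XTH3*, which remodels xyloglucan, fell by 0.95, and *EXPA8*, an expansin that loosens walls, by 0.75. Cytoskeletal genes had 16 members and 3 other genes, none rose and 9 fell, among them *TUB8* (−0.50) and *ACT7* (−0.46), both at 0 start codon P sites in carriers. Photosynthesis genes had 24 members and 18 other genes, and 1 rose (*PSAL*, 0.67) and 16 fell, among them *PSAH2* (−0.87) and *LHCB3* (−0.74). Chaperones had 18 members and 7 other genes, with 2 up and 10 down, among them *BIP1* (−0.68), the Hsp70 of the endoplasmic reticulum, and *HSP81-3* (−0.57), an Hsp90. The fraction of genes that were members was highest for the cytoskeleton (84.2%, of 19 genes) and lowest for RNA binding and processing (47.8%, of 23). These genes of the groups were named after their values were seen, and no group was tested as a set.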

How the data were processed

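Per the file headers and the study's methods, the authors deposited 1 line per mapped footprint with its ends and its P site, placed relative to both ends of the coding sequence. These are positions without normalization. The study trimmed reads with cutadapt and mapped them with STAR to TAIR10, and P-site offsets were set per length. Lines were tallied here per gene, and in 28 nt footprints the P site lay 12 nt from the 5′ end. Coding sequences held 1198328 to 2842475 P sites per library. 5′ UTR lengths, products and sequences came from RefSeq TAIR10.1, matched for 22407 of 22416 nuclear transcripts. Tallies of genes with at least 10 in 2 libraries were fitted with limma 3.58.1 voom (R 4.3.3) with 1 coefficient per genotype, trimmed-mean scaling and Benjamini-Hochberg adjustment, and the fit was checked on simulated data. Other values were computed with Python 3.11.15. The replicates of a genotype differed by more than counting noise (chi-square per degree of freedom 2.15 to 3.06). Members, lists and tests were chosen with earlier results of these data known. Genes were named by rank in depth, first covered position, share in *dcl2 dcl4* and WT, distance to the limit, gain at another codon and 5′ UTR length. They were also named by level change, among members past the threshold whose carrier libraries did not overlap the others. Further genes were named after their values were seen.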

Additional observations from a re-analysis of the deposited data

Results flagged for a closer look

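The *hot3-2* effect on coding-sequence P sites differed between the 2 backgrounds in 11 of the named members, which were chosen partly by depth and level change. It differed in 9.44% of all members and in 10.7% of the other genes at the same depth, where 1.1% of all genes tested did so. The difference is the log2 effect of *hot3-2 dcl2 dcl4* against *dcl2 dcl4* minus that of *hot3-2* against WT, tested by the interaction term of limma voom. It was −0.52 for *VSP1* (adjusted p = 6.67e-10), whose effect was −0.35 in the *dcl2 dcl4* background and 0.18 in the WT background. The eEF1A genes had lower values in the *dcl2 dcl4* background, by −0.40 for AT1G07940, −0.36 for AT1G07930 and −0.20 for AT1G07920, and these genes share most of their coding 28-mers. *PSBO1* (−0.33), *ROC5* (−0.22) and *DRT112* (−0.41) also differed downward. *AT1G11850* (0.74), *LHCB2.3* (0.69), *XPL1* (0.66) and *TPS10* (0.53) differed upward. For *LHCB2.3* the effect was −0.16 in the *dcl2 dcl4* background and −0.86 in the WT background (adjusted p of the difference = 0.000403). The differences of *TPS10* and *XPL1* had adjusted p of 0.0318 and 0.0316, and lost the threshold under 10 and 6 alternatives. That of AT1G07920 lost it under 4, of AT1G11850 under 3, of *DRT112* and *ROC5* under 2 and of *PSBO1* under 1.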

How the results depend on the processing

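The number of members followed the depth asked for and the footprints counted, at 1132 with at least 300 P sites, 312 with at least 1000, 1194 of 1931 genes with 26 to 29 nt footprints and 1148 of 2342 with all lengths, and it lay between 414 and 528 when a carrier library was left out. The members' start codon share in *dcl2 dcl4* and WT was 0.0259% as a mean over genes and 0.0309% at 26 to 29 nt, against 2.35% and 1.31% in the other genes. Asking for 10 P sites moved the median first covered position to 51 nt, and using all lengths moved it to 2 nt. At 26 to 29 nt, 1 member had its largest gain at the start codon. By the annotation, 7 members had a 5′ UTR under 12 nt. Raised positions before the start codon were 40 at 26 to 29 nt, 20 when entered by the mean of all 8 libraries, 26 at a limit of 0.5%, 20 at 2% and 27 to 35 without 1 library, alternatives chosen after seeing the data. With 28 nt footprints only, 65 members were higher in the triple mutant than in its control and 10 had a higher interaction. Without 1 library, members higher and lower were 148 to 167 and 183 to 218 for the mean effect, 147 to 178 and 114 to 171 for *hot3-2* against WT, 69 to 124 and 98 to 185 for *hot3-2 dcl2 dcl4* against *dcl2 dcl4*, 43 to 94 and 33 to 73 for *dcl2 dcl4* against WT, and 13 to 20 and 24 to 50 for the interaction. Where a genotype then had 1 library, it was assumed to vary like the others. Same-numbered libraries did not deviate together (correlations −0.03 to 0.08), and a fit with the replicate block gave 172 members higher and 211 lower in the mean effect, against 170 and 210 without it. No value changed sign. The mean effects of *COL5*, *MAML-4*, *RBCS1A*, *ROC3* and *VSP1* lost the threshold under 5 to 7 alternatives each. The causes of these shifts were not tested.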
